A study of Homo sapiens with 16 samples.

Results

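The response of 10 genes that sense or act on double-stranded RNA was followed through a knock-down of FOXA1 in 2 bladder cancer cell lines. They are the helicases DDX58, IFIH1 and DHX58, the endosomal receptor TLR3, the kinase EIF2AK2, the adaptor MAVS, the synthetases OAS1, OAS2 and OAS3, and the editing enzyme ADAR. They were selected by gene name, from a list drawn up with earlier results of these data known, and all 10 were found among the 58721 genes of the deposited count table. RNA was measured in 16 libraries. RT112, a luminal line grown in RPMI, and SCaBER, a basal squamous line grown in DMEM, both with 10% FBS, each received 4 small interfering RNAs (siRNAs): siControl.1 and siControl.2, and siFOXA1.1 and siFOXA1.2 against the transcription factor FOXA1. Every group, controls included, was transfected with Lipofectamine RNAiMAX and 10 nM of siRNA per the labels (the study's methods state the amount in ng), and the study kept the knock-down short term. Each siRNA had 2 libraries per line, numbered by the labels as experiment batch replicates, so there was no untransfected group, and medium and line cannot be told apart. Nothing states that the replicates were separate cultures, so p-values measure the spread between these libraries, which may be technical.

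Cells read long RNA duplexes as a sign of infection. DDX58 (RIG-I) and IFIH1 (MDA5) bind duplex RNA in the cytosol and signal through MAVS on mitochondria, whereas DHX58 (LGP2) lacks the signalling domains and tunes both. TLR3 reads duplex RNA inside endosomes, EIF2AK2 (PKR) halts translation once bound to it, and OAS enzymes make oligoadenylates, signal molecules that lead to RNA breakdown. ADAR rewrites adenosine to inosine in duplexes and so keeps the cell's own RNA from being read. Many of these genes are themselves induced by interferon, and an siRNA is itself a short RNA duplex.

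In the GRCh38.p14 annotation, DDX58 (current symbol RIGI, ENSG00000107201) lies at chr9:32455302-32526196. IFIH1 (ENSG00000115267) and EIF2AK2 (ENSG00000055332) are both on chromosome 2, at chr2:162267074-162318684 and chr2:37099210-37156980. DHX58 (ENSG00000108771) spans chr17:42101411-42112714 and TLR3 (ENSG00000164342) spans chr4:186069156-186088073. OAS1 (ENSG00000089127), OAS3 (ENSG00000111331) and OAS2 (ENSG00000111335) sit side by side at chr12:112906962-112933219, chr12:112938474-112973251 and chr12:112978519-113011723. MAVS (ENSG00000088888) lies at chr20:3846834-3876118 and ADAR (ENSG00000160710) at chr1:154582057-154627997. The OAS genes are paralogs, and how the counting treated a read that matched more than 1 of them is not given in the sources used here. Counts are per gene and are not split into isoforms, such as the interferon-inducible long form of ADAR.

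The sequences before the starts of these genes show what a reader of an interferon response would look for, the short motifs bound by interferon regulatory factors. RefSeq promoters (GRCh38.p14, 250 bases before to 50 bases after a start) were matched for 8 of the 10 genes. Both strands were searched for AANNGAAA and for GAAANNGAAA, whose matches each hold a match of the first, and these motifs were chosen with earlier results known. Of 35116 promoters in the table, 22.8% held AANNGAAA and 3.57% held GAAANNGAAA. Among the genes here, DDX58, IFIH1, TLR3, EIF2AK2, OAS1 and OAS3 held the first motif, IFIH1, TLR3, EIF2AK2 and OAS3 also the second, and no match to either was found for MAVS or ADAR. The 250 bases before the start are printed for the helicases DDX58 (chr9:32526197-32526446, minus strand) and IFIH1 (chr2:162318685-162318934, minus strand), for OAS1 (chr12:112906712-112906961, plus strand) and OAS3 (chr12:112938224-112938473, plus strand), which responded differently between the lines, and for MAVS (chr20:3846584-3846833, plus strand), which fell. For EIF2AK2 (chr2:37156966-37156995, minus strand) and TLR3 (chr4:186069141-186069170, plus strand) the match lies across the start, and 30 bases around it are shown. Capitals mark matches to AANNGAAA on either strand, which are matches of letters and not shown to be bound.
DDX58: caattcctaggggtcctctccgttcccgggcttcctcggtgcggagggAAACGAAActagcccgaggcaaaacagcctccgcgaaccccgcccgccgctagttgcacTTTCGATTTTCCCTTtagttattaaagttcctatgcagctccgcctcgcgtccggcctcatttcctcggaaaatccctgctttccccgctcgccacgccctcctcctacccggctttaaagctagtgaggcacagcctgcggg
IFIH1: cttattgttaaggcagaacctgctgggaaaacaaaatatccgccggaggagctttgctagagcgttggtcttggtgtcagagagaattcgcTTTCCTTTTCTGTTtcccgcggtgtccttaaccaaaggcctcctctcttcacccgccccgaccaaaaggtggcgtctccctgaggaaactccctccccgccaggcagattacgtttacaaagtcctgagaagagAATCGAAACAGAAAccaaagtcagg
OAS1: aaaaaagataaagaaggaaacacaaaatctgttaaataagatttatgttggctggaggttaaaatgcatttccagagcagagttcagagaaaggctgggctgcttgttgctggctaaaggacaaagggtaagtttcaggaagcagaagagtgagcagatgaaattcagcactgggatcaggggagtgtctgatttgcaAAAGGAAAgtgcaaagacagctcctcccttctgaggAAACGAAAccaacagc
OAS3: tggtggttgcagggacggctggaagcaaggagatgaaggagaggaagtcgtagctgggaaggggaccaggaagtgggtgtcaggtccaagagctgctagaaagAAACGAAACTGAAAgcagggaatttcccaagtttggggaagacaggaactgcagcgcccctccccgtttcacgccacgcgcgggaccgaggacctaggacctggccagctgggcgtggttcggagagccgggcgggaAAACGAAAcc
MAVS: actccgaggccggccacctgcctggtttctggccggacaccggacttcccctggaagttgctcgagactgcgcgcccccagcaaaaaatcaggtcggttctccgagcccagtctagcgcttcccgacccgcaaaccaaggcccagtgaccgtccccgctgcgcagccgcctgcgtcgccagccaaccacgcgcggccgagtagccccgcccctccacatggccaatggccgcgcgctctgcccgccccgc
EIF2AK2: gtccaaggggaAAACGAAActgagaaccag
TLR3: tcaagctttacTTTCACTTtcgagagtgcc

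Library totals were 6622473 to 7604581 counts in RT112 and 4528513 to 6914951 in SCaBER, and levels are given as CPM, the counts scaled to the library's own total. A floor of 3 counts lay at 0.394 to 0.453 CPM for RT112 libraries, while for SCaBER it lay at 0.434 to 0.662 CPM. Floors and counting intervals cover counting error only. Luminal markers were high in RT112 (GATA3 219 to 467 CPM, against 7.79 to 18.1 in SCaBER), although KRT20 reached only 0.729 CPM and UPK3A was at 0. Of the basal markers, KRT6A was 581 to 1299 CPM in SCaBER and 1.36 to 9.47 CPM in RT112. KRT14 was 379 to 987 and 0 to 7.58 CPM, and KRT5 359 to 695 and 81.7 to 234 CPM. KRT16 overlapped between the lines (13.1 to 55.1 CPM in SCaBER, 27.6 to 66.1 in RT112), as did TP63 (13.6 to 38.4 and 1.90 to 21.4). DSG3 reached 28.0 CPM in SCaBER and was at 0 in RT112. Of 4 leukocyte markers, 3 were at 0 in every library, and the fourth, CD68, reached 1.52 CPM. Mitochondrial genes took 25.7% to 28.2% of the counts under siFOXA1.1 in RT112 and 18.0% to 21.2% in its other libraries. COL1A1, on the fibroblast list, was the only member of that list above 3 counts in RT112, and the list's sum was 54.4 to 56.5 CPM under siFOXA1.1 and 7.50 to 14.3 CPM in the others. The part of either in the changes given next was not tested.

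FOXA1 itself, the targeted gene, stood at 35.0 and 29.4 CPM under siControl.1 and 18.2 and 28.4 CPM under siControl.2 in RT112. It was 1.32 and 3.24 CPM under siFOXA1.1 and 9.18 and 16.0 CPM under siFOXA1.2, so the libraries of both FOXA1 siRNAs lay below all 4 controls. The fall was 10.9-fold for siFOXA1.1 (log2 -3.45 ± 0.47 SE, adjusted p = 1.39e-05, edgeR), and for siFOXA1.2 the log2 difference of -1.10 ± 0.39 did not pass (adjusted p = 0.215). In SCaBER the 8 libraries held 0 to 15 FOXA1 counts, at most 2.43 CPM, so a knock-down was not detectable at this depth in that line.

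Under the control siRNAs the 3 helicases, OAS2, OAS3 and ADAR were lower in RT112 than in SCaBER, and OAS1 and MAVS higher. Of the 10 genes, 6 were lower in RT112 and 2 higher by edgeR's quasi-likelihood test with Benjamini-Hochberg adjustment, where 38.7% of all genes tested passed. DDX58 was 3.55 and 8.15 CPM under siControl.1 and 9.71 and 3.47 CPM under siControl.2 in RT112. In SCaBER it was 82.5 and 62.3 CPM under siControl.1 and 56.0 and 57.4 CPM under siControl.2, a 10.2-fold difference with no overlap (log2 -3.34 ± 0.30, adjusted p = 1.37e-08). IFIH1 was 13.8-fold lower in RT112 (log2 -3.78 ± 0.32, adjusted p = 5.31e-09) and DHX58 8.69-fold lower (log2 -3.12 ± 0.54, adjusted p = 9.23e-05). OAS3 was 2.66-fold lower (log2 -1.41 ± 0.14) and ADAR 1.82-fold lower (log2 -0.87 ± 0.13), with adjusted p of 6.41e-08 and 1.71e-05. OAS2 was the extreme case, with 1 count in the 4 RT112 control libraries together and 1337 counts in those of SCaBER, a ratio of 1674 (95% counting interval 300 to 66154). OAS1 went the other way, at 59.04 to 80.3 CPM in RT112 and 10.2 to 36.5 CPM in SCaBER, 3.94-fold higher in RT112 (log2 1.98 ± 0.24, adjusted p = 1.06e-06). MAVS was 1.26-fold higher in RT112 at an adjusted p of 0.0472, a call kept in 4 of 23 alternatives, and its ranges overlapped. On TPM it was -0.07 (log2), a scale on which the median of all genes was -0.28 against 0.01 in the count fit and 2026 genes were higher and 4768 lower, against 2922 and 3059. EIF2AK2 and TLR3 overlapped between the lines and did not pass (log2 0.27 ± 0.14 and 0.33 ± 1.11), and EIF2AK2 turned to -0.12 on TPM.

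The order of levels between genes is given on both scales, since TPM divides by gene length whereas a kit that reads transcript ends gains no reads with length. In the RT112 controls the order of mean TPM was MAVS 32.3 ± 6.19 (SD, n = 4), OAS1 27.0, EIF2AK2 23.5, ADAR 22.2, OAS3 11.5, DDX58 2.81, IFIH1 2.06, DHX58 0.837, TLR3 0.613 and OAS2 0.01. Neighbours in this order overlapped except ADAR and OAS3, OAS3 and DDX58, and TLR3 and OAS2. In the SCaBER controls it was ADAR 53.7 ± 7.99 (SD, n = 4), OAS3 40.9, DDX58 37.9, MAVS 34.0, IFIH1 33.7, EIF2AK2 25.7, OAS2 22.8, OAS1 10.2, DHX58 9.23 and TLR3 0.568. There only DHX58 and TLR3 did not overlap with each other. By mean CPM, with no division by length, the order in RT112 was MAVS, EIF2AK2, ADAR, OAS1, OAS3, DDX58, IFIH1, TLR3, DHX58 and OAS2, so OAS1 moved from rank 2 by TPM to rank 4. In SCaBER it was ADAR, MAVS, OAS3, EIF2AK2, IFIH1, DDX58, OAS2, OAS1, DHX58 and TLR3, and DDX58 moved from rank 3 to rank 6. On either scale DDX58 and IFIH1 lay below MAVS, EIF2AK2, ADAR, OAS1 and OAS3 in RT112.

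**Figure D1:**
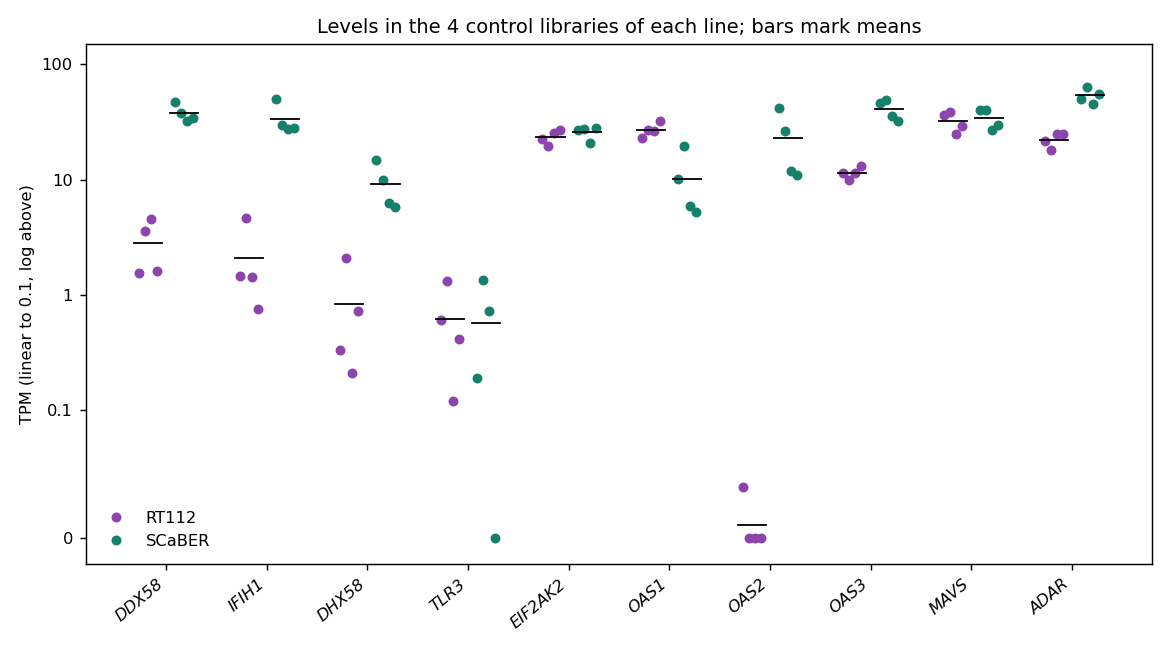
TPM (vertical axis, linear to 0.1 and log above) of the 10 genes in the 4 control libraries of RT112 and of SCaBER, with bars at the means. DDX58, IFIH1, DHX58, OAS2, OAS3 and ADAR of RT112 lie below all SCaBER points, and OAS1 lies above them.

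In RT112, siFOXA1.1 raised DDX58, IFIH1 and EIF2AK2, less firmly DHX58, and lowered the adaptor MAVS. Of the 10 genes, 5 rose and 1 fell against both controls (edgeR, adjusted p under 0.05). Among the 5, OAS2 passed the filter on low counts only through its siFOXA1.1 libraries and so had to differ, which leaves 4 up and 1 down of the other 9, where 29.1% of all genes tested passed, 14% upward, and the median log2 change was 0.81 over the 10 and -0.02 over all genes. DDX58 reached 27.8 and 34.3 CPM, above the 3.47 to 9.71 CPM of the controls, a 5.44-fold rise (log2 2.44 ± 0.43, adjusted p = 0.000203). IFIH1 was 3.94 and 12.4 CPM under siControl.1, 3.59 and 1.95 CPM under siControl.2, and 29.1 and 36.7 CPM under siFOXA1.1. Its libraries did not overlap with the controls, and the rise was 7.52-fold (log2 2.91 ± 0.45, adjusted p = 5.35e-05). DHX58, the helicase without signalling domains, was 3.81 and 11.5 CPM under siFOXA1.1 and 0.399 to 4.23 CPM in the controls, which overlap. It passed at an adjusted p of 0.0387 (log2 2.50 ± 0.88) and kept its call in 12 of 19 alternatives. Without siFOXA1.1 replicate 2 its log2 change was 1.45 (adjusted p = 0.439), and it also lost the call without siControl.1 replicate 1 (0.0863) or siControl.2 replicate 1 (0.0743). TLR3 was 3.22 CPM in replicate 1, inside the range of the controls (0.399 to 4.68 CPM), and 0.295 CPM in replicate 2, below it, and did not pass (log2 0.12 ± 1.11).

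EIF2AK2, the kinase that blocks translation, was 126 and 109.9 CPM under siControl.1 and 135 and 144 CPM under siControl.2. It was 237 and 299.5 CPM under siFOXA1.1, above every control, a 2.28-fold rise (log2 1.19 ± 0.14, adjusted p = 1.51e-06). MAVS, which DDX58 and IFIH1 signal through, moved down. It was 223 and 239 CPM under siControl.1, 145 and 173 CPM under siControl.2, and 83.2 and 62.9 CPM under siFOXA1.1. This was 2.41-fold lower with no overlap (log2 -1.27 ± 0.15, adjusted p = 2.58e-06). ADAR, at 95.3 and 107 CPM, lay within the 92.0 to 120.1 CPM of the controls and did not pass (log2 0.01 ± 0.15, 95% interval -0.28 to 0.30).

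The 3 OAS genes parted in RT112. OAS2 had 1, 0, 0 and 0 counts in the 4 control libraries and 186 and 168 counts under siFOXA1.1, or 27.2 and 24.8 CPM. Against the single control count the ratio was 752 (95% counting interval 134 to 29798), and against siControl.2, with no count, it was at least 63.7-fold higher at the floor of 3 counts per library. The edgeR test passed (adjusted p = 4.90e-07), but OAS2 entered the fit only through its siFOXA1.1 libraries, so it had to differ, and its fitted log2 value of 9.46 is no bound. OAS1 was 82.3 and 66.6 CPM under siFOXA1.1 and 59.04 to 80.3 CPM in the controls and did not pass (log2 0.25 ± 0.19, adjusted p = 0.339). OAS3 was 68.1 and 52.01 CPM against 43.0 to 54.5 CPM (log2 0.44 ± 0.20, adjusted p = 0.105). The intervals for OAS1 and OAS3 were -0.11 to 0.61 and 0.05 to 0.83, so rises of the size of DDX58 lay outside both. On TPM the median of all genes moved to -0.27, and OAS1 and ADAR turned to -0.06 and -0.29. Of the genes called, 1878 were higher and 2037 lower, against 1490 and 2453 with library totals alone and 851 and 2912 on log2(TPM + 1).

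In SCaBER, siFOXA1.1 raised 8 of the 10 genes and lowered none by the edgeR test. Among all genes 7.87% passed, 3.8% upward, and the median log2 change was 1.44 over the 10 against 0.01 over all. DDX58 was 154 and 146 CPM, above the 56.0 to 82.5 CPM of the controls, a 2.38-fold rise (log2 1.25 ± 0.23, adjusted p = 0.00334). IFIH1 was 102 and 57.4 CPM under siControl.1, 55.2 and 55.4 CPM under siControl.2, and 244 and 285 CPM under siFOXA1.1. This was a 4.05-fold rise with no overlap (log2 2.02 ± 0.22, adjusted p = 5.51e-05). DHX58 rose 2.99-fold, to 29.4 and 47.9 CPM from 8.61 to 23.0 CPM (log2 1.58 ± 0.35, adjusted p = 0.0109), and kept its call in 14 of 19 alternatives. Without siFOXA1.1 replicate 2 its adjusted p was 0.0947. EIF2AK2 was 115 and 112 CPM under siControl.1, 88.6 and 116 CPM under siControl.2, and 214 and 307 CPM under siFOXA1.1. All siFOXA1.1 values lay above the controls, a rise of 2.46-fold (log2 1.30 ± 0.19, adjusted p = 0.000685).

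All 3 OAS genes rose in SCaBER. OAS1 was 20.1 and 36.5 CPM under siControl.1, 11.5 and 10.2 CPM under siControl.2, and 85.4 and 188 CPM under siFOXA1.1, 7.88-fold higher (log2 2.98 ± 0.32, adjusted p = 3.74e-05). OAS2 was 106 and 62.2 CPM under siControl.1, 29.7 and 26.5 CPM under siControl.2, and 341 and 484 CPM under siFOXA1.1. It rose 8.60-fold (log2 3.10 ± 0.22, adjusted p = 1.28e-06). OAS3 rose 3.35-fold, from 104 to 153 CPM in the controls to 454 and 397 CPM (log2 1.74 ± 0.17, adjusted p = 2.11e-05). No siFOXA1.1 library of these genes overlapped with a control. ADAR, at 266 and 342 CPM against 175 to 234 CPM, passed narrowly (log2 0.61 ± 0.18, adjusted p = 0.0438) and kept its call in 8 of 19 alternatives. It lost the call without siControl.1 replicate 1 (adjusted p = 0.0985), siControl.2 replicate 1 (0.188) or 2 (0.0753), siFOXA1.1 replicate 2 (0.188), or siFOXA1.2 replicate 1 (0.0788) or 2 (0.0735). MAVS, at 110.8 and 124 CPM against 125 to 188 CPM, was below every control and did not pass (log2 -0.37 ± 0.18, adjusted p = 0.273). TLR3 lay between 0 and 3.90 CPM in all SCaBER libraries and did not pass (log2 1.196 ± 1.49). These are bulk samples, in which a change in the number of cells of a kind and in RNA per cell cannot be told apart.

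**Figure D2:**
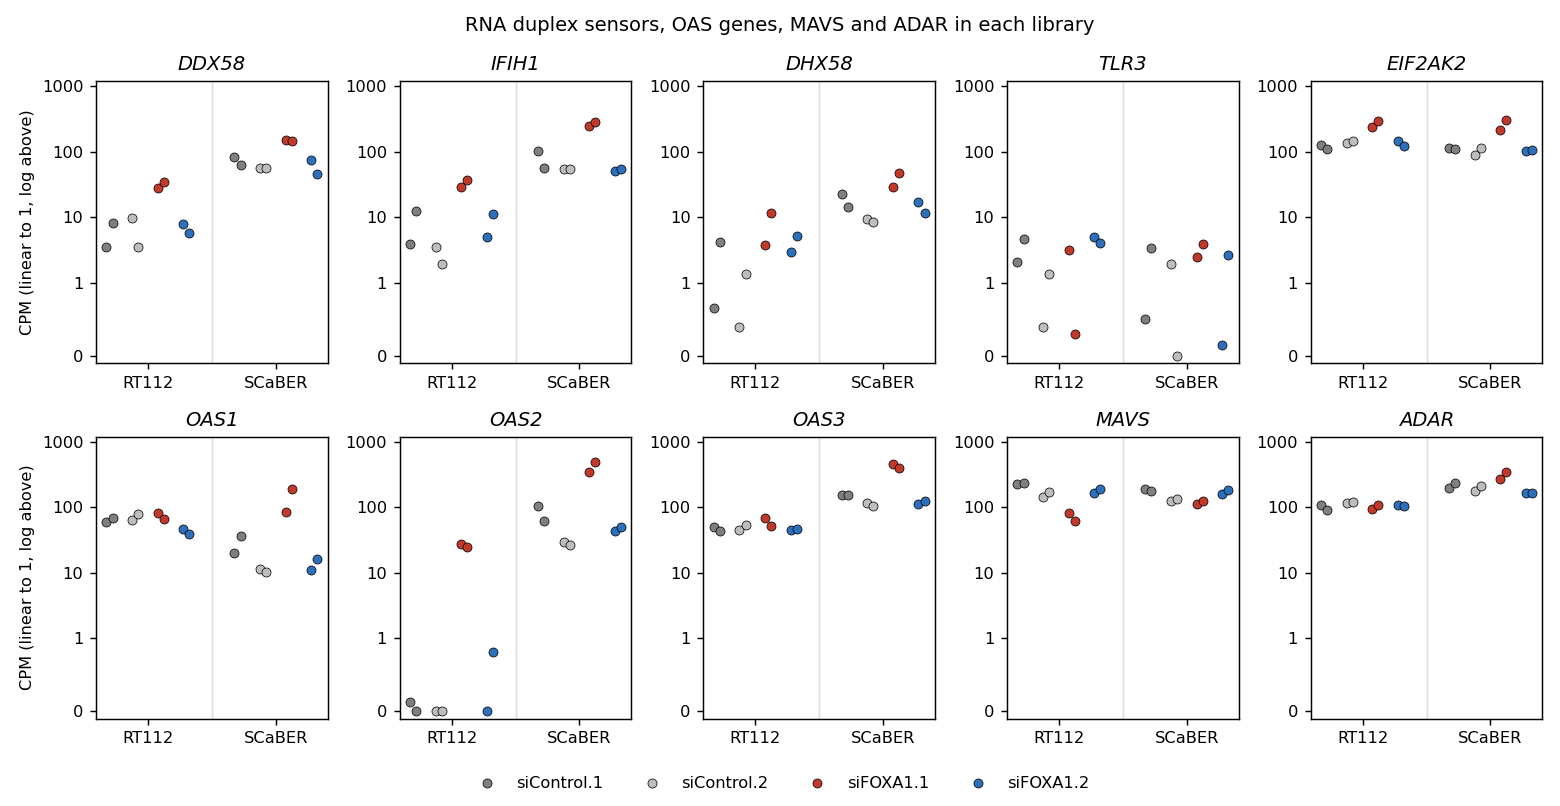
CPM (vertical axis, linear to 1 and log above) of each gene in each library, with 2 points per siRNA in each line. The siFOXA1.1 points stand above the others for DDX58, IFIH1, EIF2AK2 and OAS2 in both lines, and for DHX58, OAS1, OAS3 and ADAR in SCaBER. They stand below the others for MAVS in both lines, narrowly in SCaBER.

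No change of these genes passed the test under siFOXA1.2. By edgeR 0 of the 10 passed in RT112, where 1.78% of all genes tested passed, and 0 of the 10 in SCaBER, where 0.0373% passed. At an unadjusted p under 0.05 the counts were 2 and 0, beside 1529 of 13462 and 702 of 13407 genes in all. DESeq2 called 0 of the 10 in both lines. In RT112 DDX58 was 7.87 and 5.74 CPM and EIF2AK2 144 and 124 CPM, inside the range of the controls. The intervals of their log2 changes, -0.76 to 1.05 and -0.20 to 0.35, leave out the changes seen under siFOXA1.1. IFIH1 was 5.10 and 11.3 CPM (log2 0.80 ± 0.47) and DHX58 2.91 and 5.19 CPM (log2 1.46 ± 0.89). TLR3 was 4.95 and 4.10 CPM, the first above every control and the second inside their range (log2 1.38 ± 1.08). These intervals are wide, and rises of the sizes estimated here for these 3 genes could not be told from none at this depth. IFIH1 was lower than under siFOXA1.1 in the direct comparison given below. OAS1 was 47.1 and 39.9 CPM, below every control (59.04 to 80.3 CPM), with a log2 difference of -0.63 ± 0.19 (unadjusted p = 0.00402, adjusted p = 0.127 by edgeR). It passed when siFOXA1.1 replicate 1 (adjusted p = 0.0391) or 2 (0.0351), which are no part of this contrast, was left out of the fit. OAS2 had 0 and 6 counts, the other gene under an unadjusted p of 0.05, and the 6 counts all came from replicate 2.

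In SCaBER most siFOXA1.2 values lay inside or just under the range of the controls. DDX58 was 75.4 and 45.3 CPM, the second below the controls (log2 -0.06 ± 0.24), and IFIH1 50.7 and 54.2 CPM, just under all 4 controls (log2 -0.32 ± 0.24). OAS1 was 11.0 and 16.2 CPM, OAS2 43.7 and 49.3 CPM and OAS3 112 and 126 CPM, each inside the range of the controls. The 95% intervals of these OAS changes were -1.03 to 0.33, -0.51 to 0.42 and -0.46 to 0.24. ADAR, at 167 and 166 CPM, lay under every control (log2 -0.26 ± 0.18).

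**Figure D3:**
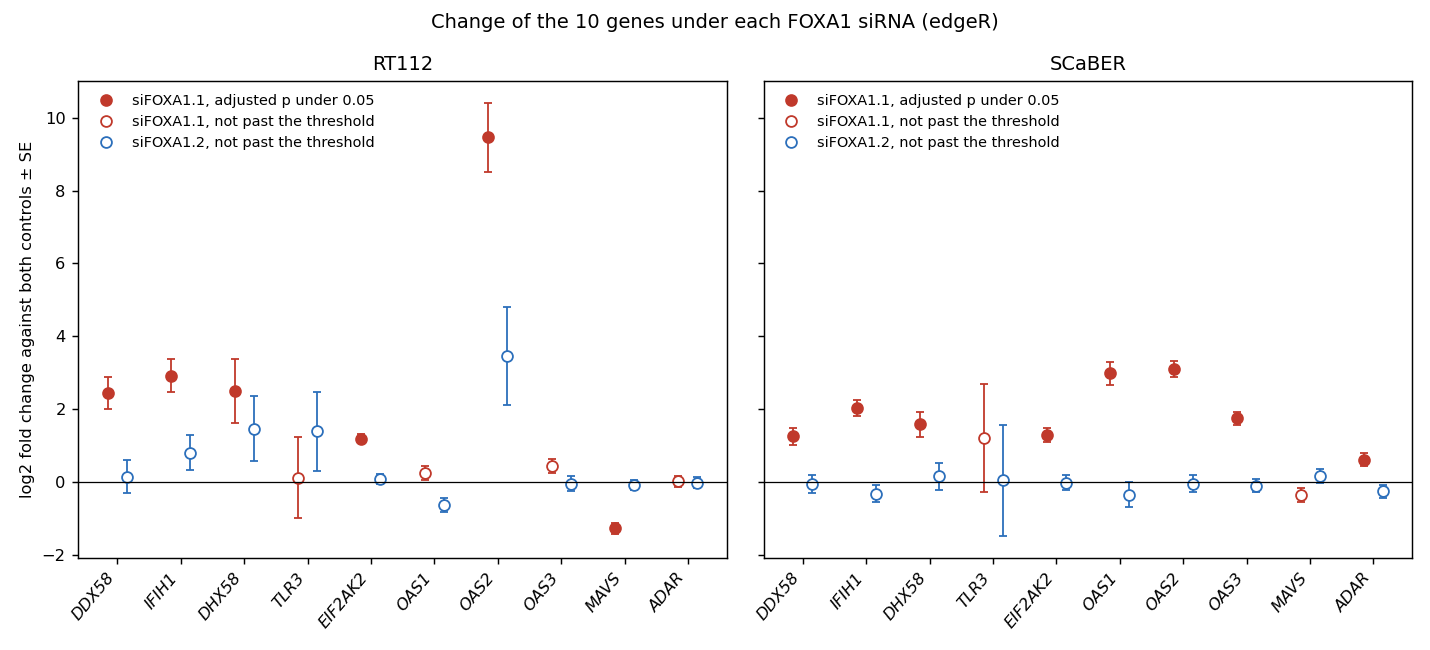
Log2 fold change ± SE (vertical axis) of the 10 genes under siFOXA1.1 (red) and siFOXA1.2 (blue) against both controls in RT112 (left) and SCaBER (right), filled where the adjusted p is under 0.05. Filled points are all siFOXA1.1, and the RT112 value of OAS2 rests on 1 control count.

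Set directly against each other, the FOXA1 siRNAs differed at these genes in both lines. In RT112 5 genes were higher under siFOXA1.1 and 1 lower by edgeR, or 4 and 1 of 9 without OAS2, whose entry through the siFOXA1.1 libraries fixed its call, where 24.7% of all genes passed, 11.4% upward. These were DDX58 (4.92-fold, log2 2.30 ± 0.54), IFIH1 (4.31-fold, log2 2.11 ± 0.55), EIF2AK2 (2.17-fold, log2 1.11 ± 0.16) and OAS1 (1.84-fold, log2 0.88 ± 0.22), with adjusted p of 0.0035, 0.00738, 4.47e-05 and 0.00545. OAS1 was 0.25 above the controls under siFOXA1.1 and at -0.63 against them under siFOXA1.2 on the log2 scale. OAS2 had 354 counts under siFOXA1.1 and 6 under siFOXA1.2, a ratio of 61.5 (95% counting interval 28.0 to 169). MAVS was 2.28-fold lower under siFOXA1.1 (log2 -1.19 ± 0.17, adjusted p = 2.72e-05). On log2(TPM + 0.1) 3 genes passed, and without siFOXA1.2 replicate 2 OAS1 lost its call (adjusted p = 0.0558).

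In SCaBER 7 genes were higher under siFOXA1.1 than under siFOXA1.2 and none lower, where 4.13% of all genes passed, 1.72% upward. OAS1 differed 10.0-fold (log2 3.33 ± 0.41), OAS2 8.88-fold (log2 3.15 ± 0.29) and OAS3 3.60-fold (log2 1.85 ± 0.21), with adjusted p of 0.000241, 1.90e-05 and 0.000145. IFIH1 differed 5.06-fold (log2 2.34 ± 0.28) and DDX58 and EIF2AK2 each 2.49-fold (log2 1.32). ADAR differed 1.83-fold (log2 0.87 ± 0.21, adjusted p = 0.0265). The call of DDX58 was lost without siFOXA1.2 replicate 2 (adjusted p = 0.196), that of EIF2AK2 without siFOXA1.2 replicate 1 (0.0692), and that of ADAR without siFOXA1.2 replicate 1 (0.205) or 2 (0.195) or siFOXA1.1 replicate 2 (0.0506). DHX58, with a log2 difference of 1.43 ± 0.42, missed the threshold at an adjusted p of 0.0766 and passed with the replicate block (0.0417).

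The control siRNAs also differed from each other at some of these genes. In SCaBER the fitted log2 difference of siControl.1 against siControl.2 was above 0 for all 10. Its median was 0.50 over the 10 and -0.001 over all genes. In CPM the libraries of EIF2AK2, ADAR and TLR3 overlapped between the 2 controls. By edgeR 0 of the 10 passed, where 0.0671% of all genes passed. At an unadjusted p under 0.05 there were 5, beside 852 of 13407 genes in all, and DESeq2 called 1 of the 10. The widest difference was that of OAS2, at 106 and 62.2 CPM against 29.7 and 26.5 CPM (log2 1.56 ± 0.28, adjusted p = 0.0586). It passed with the replicate block (adjusted p = 0.00698) and in 8 of 16 alternatives in all. OAS1 was 20.1 and 36.5 CPM against 11.5 and 10.2 CPM (log2 1.36 ± 0.40, adjusted p = 0.449) and DHX58 23.0 and 14.5 CPM against 9.57 and 8.61 CPM (log2 1.03 ± 0.43, adjusted p = 0.781). In RT112 0 passed by edgeR, where 2.11% of all genes passed, and DESeq2 called 1 of the 10, MAVS. At an unadjusted p under 0.05 there were 2, beside 1644 of 13462 genes in all. The 2 were MAVS, at 223 and 239 CPM against 145 and 173 CPM (log2 0.60 ± 0.16, adjusted p = 0.063, or 0.0337 with the replicate block), and IFIH1 (log2 1.61 ± 0.58, adjusted p = 0.214).

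The siFOXA1.1 changes differed in size with the control they were set against. In SCaBER OAS2 was 2.32 (log2) above siControl.1 alone and 3.89 above siControl.2 alone, OAS1 2.30 and 3.66, and OAS3 1.52 and 1.97. All 3 passed against either control. DHX58 passed against siControl.2 alone (log2 2.10, adjusted p = 0.0102) and not against siControl.1 alone (1.07, adjusted p = 0.182). ADAR passed against neither control alone (adjusted p of 0.170 and 0.0697). In RT112 MAVS was 1.57 below siControl.1 and 0.97 below siControl.2, IFIH1 2.11 above and 3.71 above, and EIF2AK2 1.28 and 1.0995 above, and each passed against either. DHX58 in RT112 passed against siControl.2 alone (adjusted p = 0.0461) and not against siControl.1 alone (adjusted p = 0.259).

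**Figure D4:**
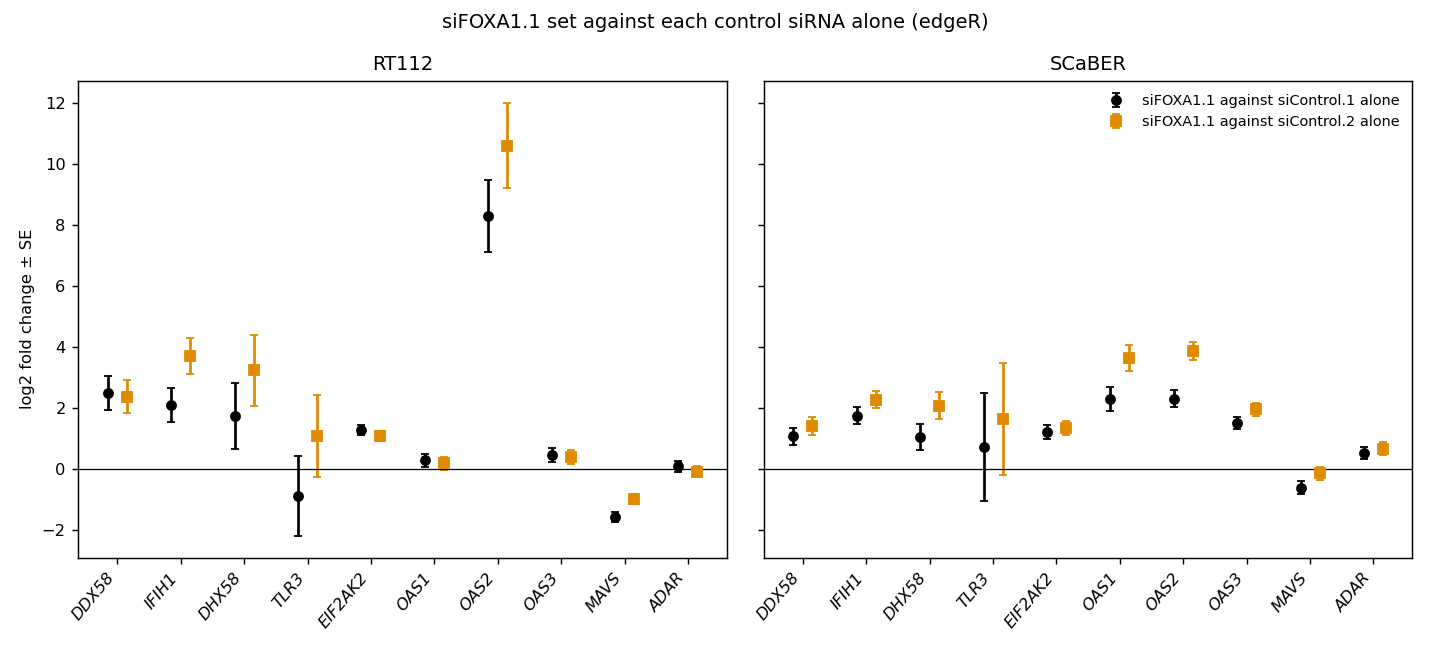
Log2 fold change ± SE (vertical axis) of siFOXA1.1 against siControl.1 alone (black circles) and against siControl.2 alone (orange squares) in RT112 (left) and SCaBER (right). In SCaBER every square lies above its circle, and for OAS2 the values are 3.89 and 2.32.

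The response to siFOXA1.1 differed between the lines for 4 of the 10 genes, where 2.59% of all genes tested passed. The difference was taken as the RT112 change minus the SCaBER change in an edgeR fit of all 16 libraries. OAS1 differed by -2.74 ± 0.40 on the log2 scale (adjusted p = 0.000594) and OAS3 by -1.32 ± 0.24 (adjusted p = 0.00435), each with the larger rise in SCaBER. MAVS differed by -0.92 ± 0.23 (adjusted p = 0.0324), with the larger fall in RT112. That call was kept in 17 of 23 alternatives, and the adjusted p rose to 0.195 without RT112 siFOXA1.1 replicate 2. It was also lost without RT112 siControl.1 replicate 1 (0.0525) or 2 (0.0694), RT112 siControl.2 replicate 2 (0.0799), and SCaBER siControl.2 replicate 1 (0.0671) or 2 (0.0509). OAS2 differed by 6.28 ± 0.82 (adjusted p = 0.000322), with the larger relative rise in RT112, where it started from 1 count. On log2(TPM + 1), which shrinks changes at low levels, this difference was -0.0048, and in CPM the rise was from at most 0.132 to 24.8 and 27.2 in RT112 and from 26.5 to 106 up to 341 and 484 in SCaBER. The differences for DDX58 (1.18 ± 0.47, adjusted p = 0.229), IFIH1 (0.88 ± 0.49, adjusted p = 0.428) and DHX58 (0.91 ± 0.84, adjusted p = 0.725) did not pass. DDX58 did pass without RT112 siControl.2 replicate 1 (1.65, adjusted p = 0.0278) or siControl.1 replicate 2 (1.54, adjusted p = 0.0484). EIF2AK2 differed by -0.12 ± 0.25 (95% interval -0.61 to 0.36). For siFOXA1.2 0 of the 10 differed between the lines by edgeR, where 0.0453% of all genes passed, and 0 by DESeq2. At an unadjusted p under 0.05 there were 2 of the 10, beside 902 of 15464 genes in all.

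The study's own grouping pooled both FOXA1 siRNAs against both controls, as 4 libraries against 4. In that grouping 0 of 9 genes tested passed in RT112 by edgeR, where 0.108% of all genes passed, and 0 of 10 in SCaBER, where 0.0084% passed. At an unadjusted p under 0.05 there were 4 and 7, beside 1454 of 11986 and 1059 of 11902 genes in all. DESeq2 called 1 and 0 of these genes. OAS2 was not tested in RT112, since the filter asked for counts in more libraries than held them. The log2 changes were 2.01 ± 0.69 for IFIH1 and 1.72 ± 0.62 for DDX58 in RT112, and 2.05 ± 0.66 for OAS2 and 1.26 ± 0.47 for IFIH1 in SCaBER. Their SEs were larger than in the fits that kept the siRNAs apart (0.45, 0.43, 0.22 and 0.22).

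Around these genes, 84 others of the duplex RNA and interferon pathways were read from lists by role. Under siFOXA1.1 25 rose and 7 fell of 69 tested in RT112, and 21 rose and 4 fell of 74 in SCaBER, beside 29.1% and 7.87% of all genes called in either direction and 14% and 3.8% upward. Under siFOXA1.2 0 passed in either line by edgeR, and DESeq2 called 2 and 1. At an unadjusted p under 0.05 there were 8 of 69 and 5 of 74, beside 1529 of 13462 and 702 of 13407 genes in all. Interferon-stimulated targets rose in 8 of 9 tested in RT112, with a median log2 change of 4.54, and in 10 of 10 in SCaBER, with a median of 2.93. IFIT1, which blocks foreign RNA from translation, was 1.06 to 6.95 CPM in the RT112 controls and 94.3 and 119 CPM under siFOXA1.1 (log2 4.84 ± 0.35). In SCaBER it was 38.6 to 72.5 CPM in the controls and 265 and 496 CPM (log2 2.91 ± 0.23). IFI44L and IFI6 showed the widest rises on this list in both lines, IFI44L by 7.64 ± 0.47 and 3.93 ± 0.24 and IFI6 by 5.20 ± 0.19 and 3.84 ± 0.23 (log2, RT112 and SCaBER). RSAD2, an antiviral enzyme, rose by 5.01 ± 0.60 in RT112. Adjusted p for all of these was at most 3.47e-06 by edgeR. In RT112 IFI44L and ISG20, both on this list, entered the fit by siRNA but not the pooled fit. The filter of the pooled fit asked for counts in more libraries, so any call of IFI44L or ISG20 in the RT112 fit by siRNA may follow from how they entered. The RT112 counts and median given above for this list include both.

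Among the receptors and factors that carry the interferon signal, STAT2 rose by 1.74 ± 0.31 in RT112 and 2.52 ± 0.30 in SCaBER (log2). IRF9, its DNA-binding partner, was 0.453 to 1.46 CPM in the RT112 controls and 16.3 and 23.9 CPM under siFOXA1.1 (log2 4.26 ± 0.70, adjusted p = 0.000101). In SCaBER it did not pass (log2 1.70 ± 0.61, adjusted p = 0.111). JAK1, a kinase that works with the interferon receptors, fell in RT112 (log2 -1.14 ± 0.16, adjusted p = 2.35e-05). Interferon transcripts themselves were scarce. IFNB1 had 0 counts in all 8 RT112 libraries and 1 count in SCaBER, under siFOXA1.1. IFNL1 had 19 counts in RT112 siFOXA1.1 replicate 1, none in replicate 2 and 1 in the controls together. In SCaBER it had 27 and 75 counts under siFOXA1.1 and 0 to 26 in the controls, which did not pass (log2 2.35 ± 1.37, adjusted p = 0.355).

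Of 10 adaptors and cofactors of the sensors, 4 rose and none fell in RT112, and 2 rose and 1 fell in SCaBER. Of all genes, 29.1% were called in RT112, 14% upward, and 7.87% in SCaBER, 3.8% upward. TRIM25, which activates DDX58, did not pass in either line (log2 0.08 ± 0.18 in RT112 and 0.30 ± 0.21 in SCaBER). TICAM1, the adaptor of TLR3, and IRF3, the factor downstream, did not pass either (TICAM1 0.93 ± 0.57 and 0.72 ± 0.62, IRF3 0.25 ± 0.18 and 0.23 ± 0.26). Of the kinases, adaptors and factors downstream, 0 of 9 tested passed in RT112 and 0 of 10 in SCaBER by edgeR. This stands beside the 29.1% and 7.87% of all genes called, and DESeq2 called 0 on this list in both lines. At an unadjusted p under 0.05 there were 0 and 3, beside 5276 of 13462 and 2830 of 13407 genes in all. IRF7 had no count in RT112, and in SCaBER it had 4 and 153 counts under siFOXA1.1 and did not pass (adjusted p = 0.116). ABCE1, an ATPase that recycles ribosomes, fell in both lines (log2 -1.06 ± 0.21 and -1.29 ± 0.24, adjusted p of 0.000566 and 0.00314). OASL, an OAS relative without the enzyme activity, rose in SCaBER (log2 1.61 ± 0.21, adjusted p = 0.000207), and in RT112 it had 15 and 9 counts under siFOXA1.1, at most 3 in any other library, and was not tested. ZBP1, a sensor of duplexes in the Z form, rose in SCaBER (log2 4.39 ± 1.16, adjusted p = 0.0317) and had no count in RT112. It did not enter the pooled SCaBER fit, whose filter asked for counts in more libraries, so its call may follow from how it entered. PRKRA, an activator of EIF2AK2, fell in SCaBER by 2.10 ± 0.56 (adjusted p = 0.0321), and in RT112 it did not pass (log2 -0.71 ± 0.36, adjusted p = 0.154).

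**Figure D5:**
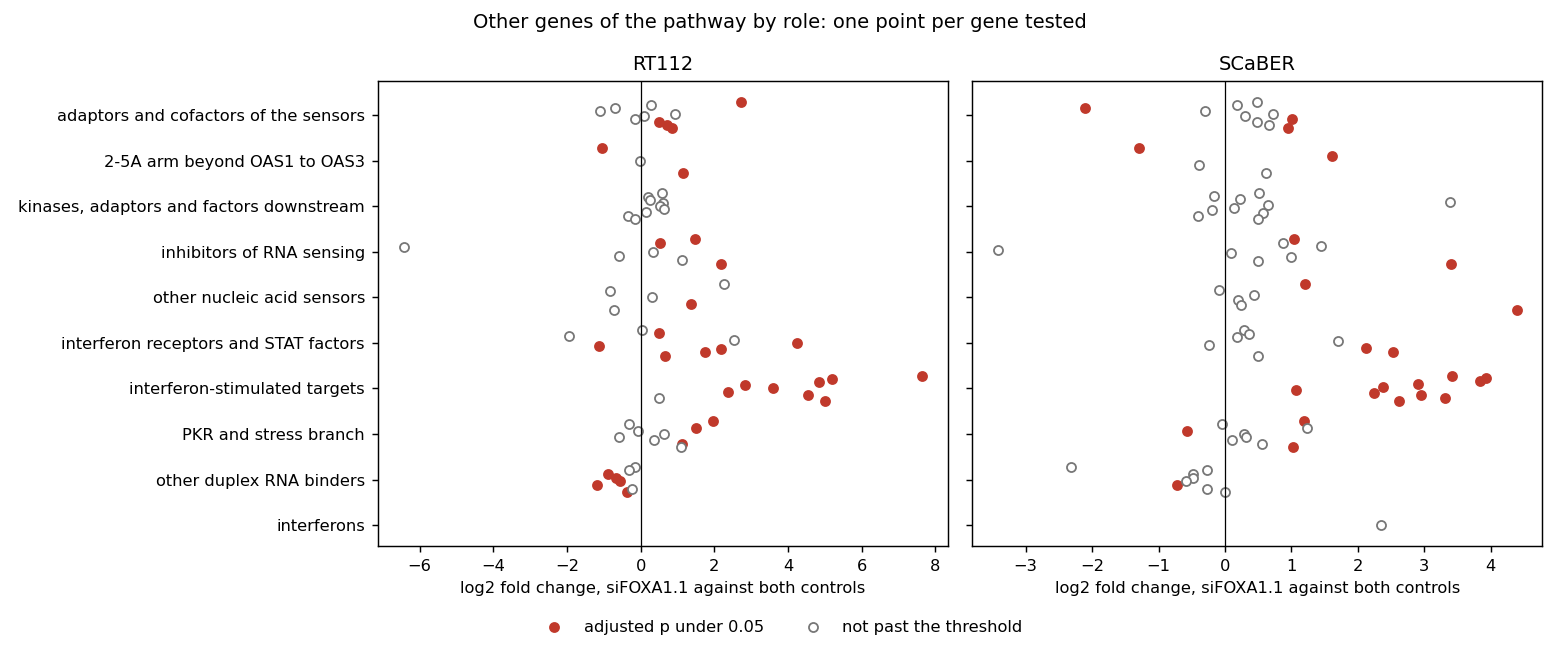
Log2 fold change under siFOXA1.1 against both controls (horizontal axis) for the other genes of the pathway tested in RT112 (left) and SCaBER (right), grouped by role, with red points at an adjusted p under 0.05. Interferon-stimulated targets stand to the right in both lines, with 8 of 9 and 10 of 10 past the threshold, and other duplex RNA binders lie at or left of 0. The 9 include IFI44L and ISG20, and any call of these in RT112 may follow from how they entered the fit.

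Over the 16 libraries, with each line centred on its own mean, the genes here followed DDX58 to different degrees in log2 CPM. Pearson's r was 0.872 for OAS2 and for IFIH1, 0.796 for EIF2AK2, 0.675 for DHX58, 0.518 for OAS3, 0.447 for OAS1, 0.233 for ADAR, -0.088 for TLR3 and -0.830 for MAVS. Among 11800 genes the closest to DDX58 were ISG20 (r = 0.953), SUPT5H (0.941), PGRMC2 (0.938), ZDHHC9 (0.918) and OPTN (0.909). These values describe 16 libraries that share siRNAs and lines, and DDX58 itself rose under siFOXA1.1. In RT112 OAS2 reached 10 counts in 0 libraries outside siFOXA1.1, and ISG20 did not enter the pooled fit. The r of either may follow from that and is no separate support.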

How the data were processed

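RNA of 16 libraries from 2 cell lines (4 siRNAs per line, 2 libraries each) was sequenced from 3' ends with the Lexogen QuantSeq FWD kit. The authors trimmed reads with TrimGalore 0.6.2 (minimum quality 20, minimum length 10), aligned them with STAR 2.6.1a to hg38 per the deposited settings, and counted reads per gene on GENCODE 29, whereas the study's methods name an older build. The deposited counts are raw counts per gene, and the deposited TPM divides them by gene length. Groups were taken from the labels.

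Counts were tested with the quasi-likelihood test of edgeR 4.0.16 in R 4.3.3, with TMM scaling, filterByExpr (minimum count 10) and Benjamini-Hochberg adjustment over all genes, at a threshold of 0.05. Each line was fitted with its 4 siRNA groups (13462 genes in RT112, 13407 in SCaBER), the pooled grouping with 11986 and 11902 genes, and the comparisons between lines with all 16 libraries (15464 genes), giving 13 comparisons. The SE is the size of the log2 change divided by the square root of F, and 95% intervals are 1.96 SE. All 10 genes passed the filter in the fits by siRNA, OAS2 in RT112 only through its siFOXA1.1 libraries. CPM was computed from library totals, and likeness to DDX58 from log2 CPM with a prior count of 2. The fits were tested on simulated data before use. For siFOXA1.1 against both controls, edgeR recovered 42.2% of 2-fold and 77.1% of 4-fold changes in RT112. In SCaBER it recovered 28.3% and 56.25%, and for the difference between the lines 8.42% and 44.4%. The simulations changed 100 genes at each fold among those fitted, whereas 29.1% of all genes were called in the RT112 data. The adjustment of p depends on that share, so the rates describe the simulated setting and not the power of the fits here. A value that did not pass can still hide a change of these sizes.

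Alternatives were RLE size factors, library totals alone, DESeq2 1.42.0, no filter beyond 1 count, limma 3.58.1 on log2(TPM + 1) and log2(TPM + 0.1), a replicate block, each library left out, either control alone, all 16 libraries in 1 fit, and within-batch values. A filter on the 2 target groups was added after seeing the data. Replicate numbers mark a shared experiment batch in the labels. The correlation of deviations between libraries of the same number was -0.0159 to 0.00635 in RT112 and 0.00544 to 0.157 in SCaBER. Replicates differed by more than counting noise, with chi-square per degree of freedom of 8.15 to 33.8.

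The 10 genes, the lists by role and the motifs were chosen with earlier results of these data known. Of the 84 list genes, the text names a fixed set and the 3 largest called rises and falls under siFOXA1.1 in each line, and the 5 genes closest to DDX58. Genes named beyond this were chosen after their values were seen. Coordinates and promoters are from RefSeq on GRCh38.p14. The sequences of the siRNAs were not analysed here, and values of 2 list genes are not reported here. Plots were drawn with matplotlib 3.10.9 under Python 3.11.15.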

Additional observations from a re-analysis of the deposited data

Results flagged for a closer look

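In 40 groups of 4 control libraries or 4 siFOXA1 libraries, the gap of the outermost library was set against the range, and 3 exceeded Dixon's 95% critical value, where chance gives about 1 in 20 groups. IFIH1 in the SCaBER controls had a ratio of 0.954, with siControl.1 replicate 1 at 102 CPM and the other three at 55.2 to 57.4 CPM. EIF2AK2 in the SCaBER controls had a ratio of 0.840, with siControl.2 replicate 1 at 88.6 CPM below the others at 112 to 116 CPM. OAS2 in the RT112 controls had a ratio of 1, which rests on a single count in siControl.1 replicate 1.

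The siFOXA1.1 change differed between RT112 and SCaBER for 4 genes by the interaction term of edgeR. The RT112 minus SCaBER difference was -2.74 for OAS1, -1.32 for OAS3, -0.922 for MAVS and 6.28 for OAS2 on the log2 scale. The direction in the 2 batches was the same as in the whole for each of them.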

How the results depend on the processing

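Of 2368 refits of the 10 genes' values, 63 lost a call, 34 gained one, and 31 changed sign by more than 1 SE or in a called value (3 of these in called values), while 62 further sign changes lay within 1 SE of uncalled values and were counted as unchanged; the cause was not tested. On log2(TPM + 1) and log2(TPM + 0.1), the siFOXA1.1 change in RT112 turned to -0.059 and -0.061 for OAS1 and -0.29 and -0.30 for ADAR, ADAR against siFOXA1.2 to -0.24 and -0.25, and RT112 against SCaBER under the controls to -0.12 and -0.13 for EIF2AK2 and -0.072 and -0.074 for MAVS. On log2(TPM + 1) the difference between lines under siFOXA1.1 was -0.18 for DHX58 and -0.0048 for OAS2, and called genes between the FOXA1 siRNAs were 4 on either TPM scale in SCaBER and 3 on log2(TPM + 0.1) in RT112. Under siFOXA1.2, against siControl.1 alone DHX58 was -0.36 and MAVS -0.077 in SCaBER, and against siControl.2 alone MAVS was 0.22 in RT112 and OAS1 0.33, OAS2 0.74 and OAS3 0.12 in SCaBER. Between the controls DESeq2 called 1 gene in each line, no filter beyond 1 count called 1 in RT112 and 2 in SCaBER, and the replicate block 1 and 1. In the pooled grouping DESeq2 called 1 in RT112, and no filter called 1 in RT112 and 5 in SCaBER. The replicate block changed the call of MAVS and OAS2 between the controls and of DHX58 between the FOXA1 siRNAs in SCaBER (1.46, adjusted p = 0.0417), and no other. With 1 library left out, values ranged from -0.84 to 0.82 for DDX58, -0.37 to 2.61 for DHX58 and 0 to 3.09 for OAS2 between the RT112 controls and -0.97 to 6.55 for TLR3 between those of SCaBER. Under siFOXA1.2 they were -0.48 to 0.26 for DDX58 and -2.99 to 2.84 for TLR3 in SCaBER, and -1.15 to 4.60 for OAS2 in RT112. Under siFOXA1.1 in RT112 TLR3 was -2.36 to 0.97, and DHX58 against siFOXA1.2 -0.016 to 1.63. The difference between lines was -0.14 to 1.84 for DHX58 and -0.35 to 0.13 for EIF2AK2 under siFOXA1.1, and -1.06 to 4.56 for OAS2 and -1.51 to 4.40 for TLR3 under siFOXA1.2. Genes called ranged from 0 to 2 between the controls in either line and 0 to 1 for siFOXA1.2 in RT112. The filter added after seeing the data changed none of the 76 values it kept, but it left OAS2 in RT112 untested. All 78 within-batch values of called genes kept their direction. With 2 libraries per siRNA and few counts for TLR3, DHX58 and OAS2 in RT112, small changes of these genes are beyond this depth.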

Other observations

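Of 9 genes of the EIF2AK2 and stress branch, 3 rose and none fell in RT112 under siFOXA1.1, and 2 rose and 1 fell in SCaBER. Of all genes 29.1% were called in RT112, 14% upward, and 7.87% in SCaBER, 3.8% upward. The RT112 share called in either direction is thus near that of all genes, while the share that rose is above the upward share. ATF3, a stress transcription factor, rose in both lines (log2 1.96 ± 0.35 and 1.19 ± 0.31, adjusted p of 0.000222 and 0.0261 by edgeR). In RT112 DDIT3 (log2 1.49 ± 0.51) and PPP1R15A (log2 1.12 ± 0.23) rose as well, and in SCaBER TRIB3 rose (log2 1.02 ± 0.28) and the kinase EIF2AK1 fell (log2 -0.58 ± 0.16). Of 8 other genes that bind or cut duplex RNA, 5 fell in RT112 and 1 in SCaBER, and none rose. This stands beside the same 29.1% and 7.87% of all genes in either direction, to which the SCaBER share is near. Of all genes, 2037 of 13462 fell in RT112 and 545 of 13407 in SCaBER. ILF2 fell in both (log2 -1.18 ± 0.15 and -0.72 ± 0.20), and DHX9, DICER1, DROSHA and STAU1 fell in RT112, by log2 values of -0.89, -0.68, -0.56 and -0.37.

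Among 8 inhibitors of RNA sensing, USP18, which dampens interferon receptors, rose in both lines (log2 2.17 ± 0.49 and 3.41 ± 0.45), as did the deubiquitinase CYLD (log2 1.47 ± 0.27 and 1.04 ± 0.26). Of the sensors of other nucleic acids, IFI16 rose in RT112 (log2 1.35 ± 0.39) and AIM2 in SCaBER (log2 1.203 ± 0.27). The difference of each of these between the lines is not given here.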
